A study of Bos taurus and Ovis aries and Capra hircus with 27 samples.

Results

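The genes described here are 8 mitochondrially encoded genes of sheep, namely the 3 subunit genes of cytochrome c oxidase (COX1, COX2 and COX3), the 2 of ATP synthase (ATP6 and ATP8), cytochrome b (CYTB) and the 2 ribosomal RNAs (12S and 16S). They were 8 of the 25196 genes in the sheep table and of 71943 in the tables of sheep, cattle and goat together. The series held 27 mRNA-seq libraries from heart, liver and kidney of these 3 species, and the 9 sheep libraries were 3 per tissue, from small tail han sheep labelled as about 3 years old. The animals were adult females in the study's account, with several tissues taken from each animal. Every value below is in FPKM (fragments per kilobase of transcript, scaled to the mapped fragments of the library), so levels of different genes are per length. Each library was bulk tissue, in which fewer mitochondria or cells cannot be told apart from less RNA in each.

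Mitochondria carry a small circular genome of their own, which is copied into long RNAs spanning many genes and then cut at the transfer RNAs that lie between many of them. Its protein products are all subunits of the oxidative phosphorylation chain. CYTB is the core of complex III, COX1, COX2 and COX3 form the core of complex IV, where electrons reach oxygen, and ATP6 and ATP8 are parts of the membrane portion of ATP synthase. The ribosomal RNAs build the mitochondrial ribosome that translates these messages. Heart muscle is known for its dense mitochondria and its dependence on this chain.

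The sheep table gave identifiers with no gene names, and the names used here follow the order of the identifiers numbered 1 to 37, read along the mammalian mitochondrial genome. In the cattle reference (ARS-UCD2.0) that genome held 37 genes, of which 22 were transfer RNAs, 2 ribosomal RNAs and 13 protein coding. All 37 sheep identifiers were listed, and the 22 that were at 0 in all 9 libraries were the 22 at transfer RNA places. The other 15 places all held a gene above 0 in at least 1 library, and the 8 names equalled those at the same places in cattle. No sheep mitochondrial sequence or position was used here, so the names rest on order alone, and the tissue labels could not be set against marker genes. In the cattle annotation ATP8 overlaps ATP6, and ATP6 overlaps COX3, so reads may be shared between these neighbours. How reads that also match nuclear copies of mitochondrial sequence were treated is not given in the sources used here.

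Heart libraries held the highest levels of these transcripts, liver was intermediate and kidney was lowest for the protein-coding genes, with COX1 in heart as the exception. All 3 heart libraries lay above all 6 liver and kidney libraries for 6 of the 8 genes (COX2, COX3, ATP6, ATP8, CYTB and 12S rRNA), a pattern found in 13.2% of all genes tested. Every liver library lay above every kidney library for 6 of the 8, the protein-coding genes, against 12.4% of all genes tested. The exceptions to the first pattern were COX1, listed at 0 in heart, and 16S rRNA, and those to the second were both ribosomal RNAs.

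**Figure D1:**
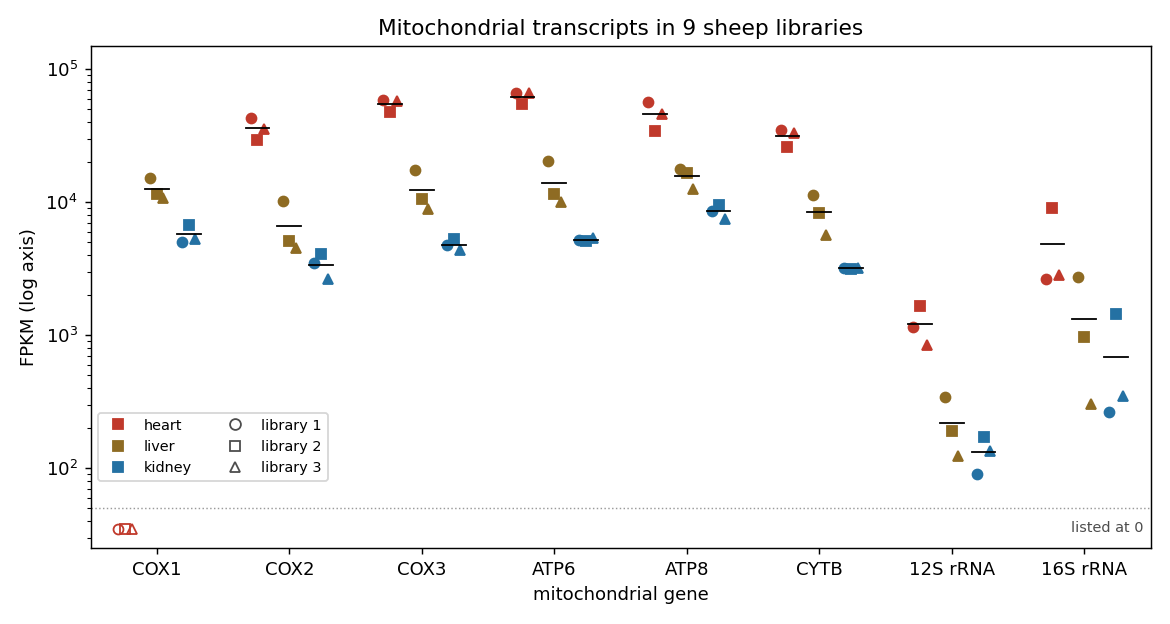
Level of each of the 8 genes in the 9 sheep libraries, in FPKM on a log axis, with the horizontal line at the mean of 3 libraries and open symbols under the dotted line for values listed at 0. The heart points of COX2, COX3, ATP6, ATP8, CYTB and 12S rRNA sit above all liver and kidney points, COX1 is at 0 in the 3 heart libraries, and 16S rRNA varies most between libraries of one tissue.

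Tissues were compared with limma on log2(FPKM + 1) over the 14188 genes that passed the filter on low values, and a gene was called at an adjusted p at or below 0.05. All 8 genes passed that filter. Between heart and liver, 6 of the 7 genes with a value above 0 in both tissues were called, all higher in heart, against 30.8% of all genes tested. Between heart and kidney, 7 of 7 were called higher in heart, against 14.6% of all genes. Between liver and kidney, 5 of 8 were called higher in liver, against 12.3% of all genes. No member with a fold was called lower in any of the 3 comparisons.

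The median log2 difference of the members was 2.21 for heart minus liver, 3.29 for heart minus kidney and 1.00 for liver minus kidney. Over all genes tested the medians were 0.25, -0.66 and -0.95, so relative to the typical gene the members stood 1.96, 3.95 and 1.95 higher. These FPKM values were not on one common centre across tissues, and genes called higher made up 65.8%, 22.9% and 17.0% of all calls in the 3 comparisons. After scaling to a median ratio those shares were 52.0%, 52.1% and 49.7%, and after scaling to an equal sum outside identifiers 1 to 37 they were 43.5%, 12.5% and 15.8%. Under the median ratio 5 of 7, 7 of 7 and 7 of 8 members were called higher, against 25.5%, 26.9% and 27.6% of all genes tested. Under the equal sum the counts were 5, 7 and 4, against 17.9%, 9.32% and 11.8% of all genes. Quantile normalization, which gives equal ranks equal values and so flattens genes that rank near the top in every tissue, left 1 of 7, 5 of 7 and 2 of 8 called, against 26.8%, 25.2% and 22.8% of all genes. In that setting the first count was below the share of all genes and the last was near it.

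**Figure D2:**
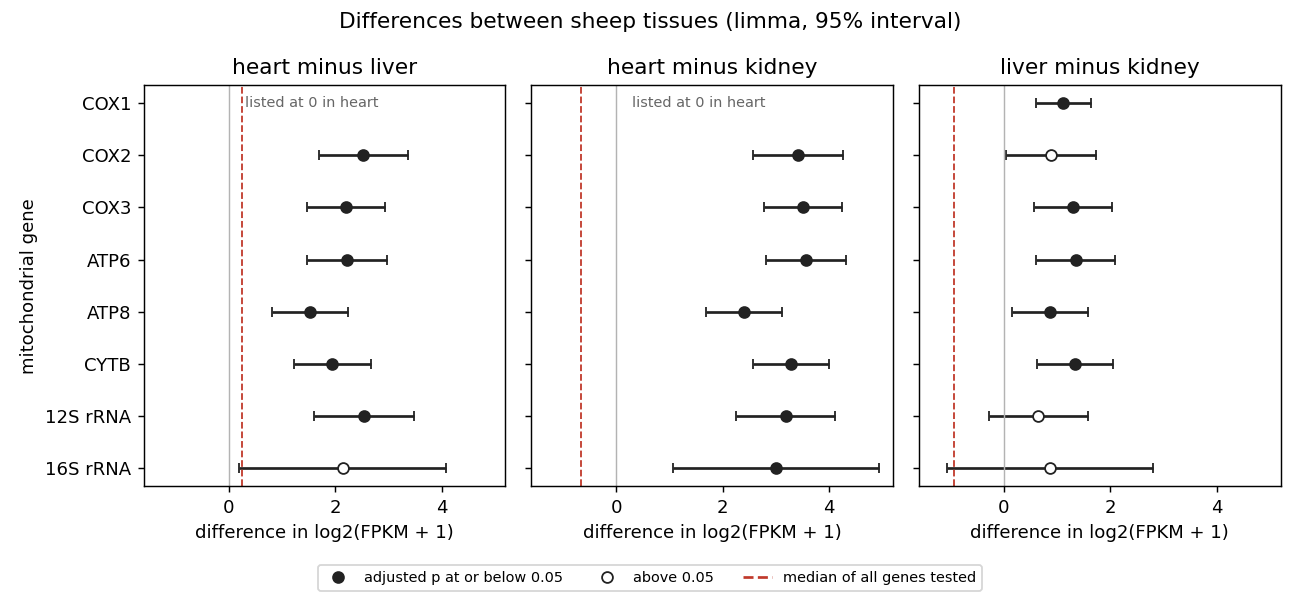
Difference between tissues in log2(FPKM + 1) for each gene, with the 95% interval from limma, filled symbols where the adjusted p was at or below 0.05 and a dashed line at the median of all genes tested. All points lie above 0 on these deposited values, where under quantile normalization ATP8 (both heart comparisons) and CYTB (heart minus liver) turn below 0, and the interval of 16S rRNA is the widest in each panel.

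COX1 (ENSOARG00000000016), the catalytic subunit of cytochrome c oxidase, was listed at 0 FPKM in all 3 heart libraries. In liver it was at 15136, 11588 and 10719 FPKM in libraries 1, 2 and 3, and in kidney at 5060, 6801 and 5314 FPKM. Liver and kidney did not overlap, with a liver mean of 12481 ± 2340 FPKM (SD, n = 3) against 5725 ± 940 in kidney. The liver level was 2.18 times the kidney level, and the log2 difference was 1.12 ± 0.23 (SE), with a limma adjusted p of 0.00163. It was called in each of 18 alternative settings in which it could be fitted. The spread was estimated over all 3 tissues, so the 3 heart values of 0, which do not vary, entered that estimate. No alternative left out all 3 of them, so these calls do not show how the test would stand without them.

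Among the 25196 sheep genes, COX1 was the 1 gene listed at 0 in all heart libraries and above 1000 FPKM in the other 6, and no gene had that pattern for liver or for kidney. The neighbouring genes COX2 and COX3 were at 29375 FPKM or more in the same heart libraries. A value of exactly 0 in a table without read counts may be an estimate that failed, so no fold is given for COX1 in heart and it is left out of the limma counts for heart. Sums over the members count COX1 as 0 in heart unless it is said to be left out. Whether reads of COX1 were present in heart was not tested, since no read counts were used here.

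COX2 (ENSOARG00000000019), the subunit that takes electrons from cytochrome c, was at 43169, 29375 and 35758 FPKM in the heart libraries. Liver held 10232, 5083 and 4530 FPKM, and kidney 3465, 4077 and 2631 FPKM. The 3 tissues did not overlap, although the lowest liver library exceeded the highest kidney library only narrowly. Heart was 5.46 times liver (log2 difference 2.53 ± 0.38, limma adjusted p = 0.000332) and 10.6 times kidney (3.42 ± 0.38, adjusted p = 4.34e-05). The liver to kidney ratio of 1.95 did not pass the test, with a log2 difference of 0.89 ± 0.38 and an adjusted p of 0.0550. It passed without liver library 3 (adjusted p = 0.0431) or kidney library 2 (adjusted p = 0.0427), with the study's filter (adjusted p = 0.0482) and under the median ratio (2.18, adjusted p = 0.00942). Without liver library 1 it was 0.52 (adjusted p = 0.269), and the adjusted p had a range of 0.00942 to 0.269 over 19 alternatives.

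COX3 (ENSOARG00000000023), another core subunit of the same complex, was at 58340, 47744 and 57777 FPKM in heart. Its liver values were 17391, 10608 and 8884 FPKM and its kidney values 4769, 5257 and 4403 FPKM. No tissue overlapped another, and the 2 lower liver libraries were much closer to kidney than liver library 1 was. The heart mean of 54620 ± 5962 FPKM was 4.44 times the liver mean and 11.4 times the kidney mean. The log2 differences were 2.21 ± 0.33 (limma adjusted p = 0.000332) and 3.50 ± 0.33 (adjusted p = 1.53e-05). Liver was 2.56 times kidney, with a log2 difference of 1.30 ± 0.33 and an adjusted p of 0.00509. Without liver library 1 this last difference was 1.02 and was not called (adjusted p = 0.0525), in a range of 0.00348 to 0.108 over 19 alternatives.

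CYTB (ENSOARG00000000035), which passes electrons on within complex III, was at 34978, 26016 and 33451 FPKM in heart. Liver held 11343, 8253 and 5670 FPKM. Kidney held 3226, 3167 and 3214 FPKM, a coefficient of variation of 0.969%, the smallest of any of the 8 genes in any tissue. Heart was 3.74 times liver, with a log2 difference of 1.95 ± 0.32 and a limma adjusted p of 0.000663, a difference that was -0.0106 under quantile normalization. Heart was 9.83 times kidney (3.29 ± 0.32, adjusted p = 2.05e-05), and liver was 2.63 times kidney (1.34 ± 0.32, adjusted p = 0.00386). CYTB and COX1 were the members that were still called between liver and kidney when liver library 1 was left out.

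ATP6 (ENSOARG00000000022), a subunit of the proton path of ATP synthase, was the highest of the 8 genes in heart, at 66230, 54521 and 66542 FPKM. It ranked first among all sheep genes in heart libraries 1 and 3. Liver held 20319, 11457 and 10135 FPKM, and kidney 5241, 5107 and 5358 FPKM. The tissues were far apart, heart being 4.47 times liver (log2 difference 2.22 ± 0.33, limma adjusted p = 0.000356) and 11.9 times kidney (3.57 ± 0.33, adjusted p = 1.52e-05), the largest heart to kidney ratio of the 7 genes with one. Liver was 2.67 times kidney (1.35 ± 0.33, adjusted p = 0.00460). Without liver library 1 the liver to kidney difference was 1.04, with an adjusted p of 0.0502, in a range of 0.00343 to 0.110 over 19 alternatives.

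ATP8 (ENSOARG00000000021), a small subunit of the same enzyme, was at 57060, 34571 and 46049 FPKM in heart. Its liver values of 17876, 16647 and 12668 FPKM and kidney values of 8554, 9614 and 7511 FPKM did not overlap each other or heart. Heart was 2.92 times liver, the smallest heart to liver ratio of the 7 genes, with a log2 difference of 1.53 ± 0.32 (limma adjusted p = 0.00284) that was -0.50 under quantile normalization. The heart to liver call was also lost under the median ratio (1.13, adjusted p = 0.127), under the equal sum (0.92, adjusted p = 0.122) and with no filter (adjusted p = 0.115), in a range of 0.00186 to 0.226 over 19 alternatives. Against kidney, heart was 5.36 times higher, with a difference of 2.40 ± 0.32 (adjusted p = 0.000143) that was -0.20 under quantile normalization.

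Between liver and kidney the ATP8 ratio was 1.84, with a log2 difference of 0.87 ± 0.32 and a limma adjusted p of 0.0314. This call held in 8 of 19 alternatives, whose adjusted p ranged from 0.00898 to 0.452. It was lost without heart library 3 (adjusted p = 0.0553), liver library 1 (0.168), liver library 2 (0.0890), kidney library 1 (0.0771) or kidney library 3 (0.0604). A replicate block also removed it (adjusted p = 0.0594). ATP8 is the shortest of the protein-coding genes, and FPKM of short genes depends strongly on the length correction.

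The 12S rRNA (ENSOARG00000000002), of the small subunit of the mitochondrial ribosome, was at 1155, 1659 and 839 FPKM in heart. It was at 346, 190 and 123 FPKM in liver and at 91.0, 172 and 134 FPKM in kidney. Heart lay above both other tissues in every library, whereas liver and kidney overlapped. The heart to liver difference was 2.54 ± 0.42 on the log2 scale (5.55 times, limma adjusted p = 0.000625) and the heart to kidney difference 3.18 ± 0.42 (9.21 times, adjusted p = 0.000129). Between liver and kidney the difference of 0.64 ± 0.42 did not pass the test (adjusted p = 0.186), with a 95% interval of -0.29 to 1.58. That difference was 0.25 without liver library 1, 0.40 without kidney library 1 and 1.00 without liver library 3, none of them called. Under the median ratio it was 1.93 and was called (adjusted p = 0.00781), in a range of 0.00781 to 0.805 over 19 alternatives.

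The 16S rRNA (ENSOARG00000000004), of the large subunit, was the most variable of the 8 genes within each tissue. Heart held 2641, 9135 and 2851 FPKM, liver 2737, 962 and 305 FPKM, and kidney 265, 1437 and 349 FPKM. The highest library was 3.46 times the lowest in heart, 8.98 times in liver and 5.42 times in kidney, and each pair of tissues overlapped except heart and kidney. The heart to liver difference of 2.14 ± 0.87 was not called (limma adjusted p = 0.0680), and the heart to kidney difference of 3.00 ± 0.87 was (adjusted p = 0.0123). Between liver and kidney the difference was 0.86 ± 0.87 (adjusted p = 0.386), with a 95% interval of -1.08 to 2.81. That last difference ran from 0.086 without liver library 1 to 1.67 without liver library 3, and it was 0.39 without kidney library 1 and 1.61 without kidney library 2.

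Single libraries decided the 16S calls. Without liver library 1 the heart to liver difference was 2.92 and was called (adjusted p = 0.0197). Without liver library 3 it was 1.34 (adjusted p = 0.231) and without heart library 2 it was 1.56 (adjusted p = 0.232). It was called at 2.14 without kidney library 2 (adjusted p = 0.0484) and with a replicate block (adjusted p = 0.0399), and the range over 19 alternatives was 0.0197 to 0.248. The heart to kidney call was lost without heart library 2 (2.42, adjusted p = 0.0521) or kidney library 1 (2.53, adjusted p = 0.0502), in a range of 0.00590 to 0.0586. Libraries made from messenger RNA leave out most ribosomal RNA, so these values are what passed that selection, and they are not the abundance of the ribosomal RNAs in the tissue.

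Single libraries stood apart in the same way across the protein-coding genes of a tissue. Heart library 2 was the lowest heart library in 5 of 5 protein-coding genes above 0 and the highest in 2 of 2 ribosomal RNAs. Liver library 1 was the highest liver library in 6 of 6 protein-coding genes and in both ribosomal RNAs, and liver library 3 was the lowest in all 8. In kidney, library 2 was the highest in both ribosomal RNAs, and no library was the highest or the lowest in all 6 protein-coding genes.

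The 8 genes together took a large part of each library's FPKM. They held 26.6%, 15.8% and 25.7% of the summed FPKM in heart libraries 1, 2 and 3, with COX1 contributing nothing there. The shares were 17.1%, 11.6% and 9.03% in liver and 6.33%, 6.73% and 6.94% in kidney. Means were 22.7% ± 6.01 (SD, n = 3) in heart, 12.6% ± 4.15 in liver and 6.67% ± 0.310 in kidney. Kidney lay below every library of the other 2 tissues, and heart library 2 lay below liver library 1, whose sum includes COX1. With COX1 left out in every tissue the liver shares were 14.4%, 9.51% and 7.20% and the kidney shares 5.29%, 5.44% and 5.67%, and heart lay above both in every library.

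The share was 10.1 percentage points higher in heart than in liver (2-sided exact permutation p = 0.2, adjusted over 3 tests 0.2), and 12.3 points higher over the 7 members with no value of 0 (exact permutation p = 0.1). Within library numbers 1, 2 and 3 heart exceeded liver by 9.49, 4.22 and 16.7 points over the 8 genes. It was 16.1 points higher in heart than in kidney (exact permutation p = 0.1, adjusted 0.15) and 5.92 points higher in liver than in kidney (exact permutation p = 0.1, adjusted 0.15). With 3 libraries against 3 the smallest p this test can give is 0.1. Without liver library 1 the liver to kidney difference was 3.64 points.

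FPKM sums differed between libraries, from 416442 to 1284327, so a share also depends on what else is listed. One heart gene, ENSOARG00000024133, was listed at 57588, 229327 and 14500 FPKM in the heart libraries and at 0 in liver and kidney. With it left out, a choice made after seeing the data, the members held 28.3%, 19.2% and 26.1% of heart FPKM, all above the highest liver library, and the heart to liver difference was 11.96 points (exact permutation p = 0.1). Set against the summed FPKM of genes outside identifiers 1 to 37, the members came to 44.2%, 20.7% and 41.2% in heart, 23.2%, 13.9% and 10.4% in liver, and 6.95%, 7.38% and 7.71% in kidney.

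**Figure D3:**
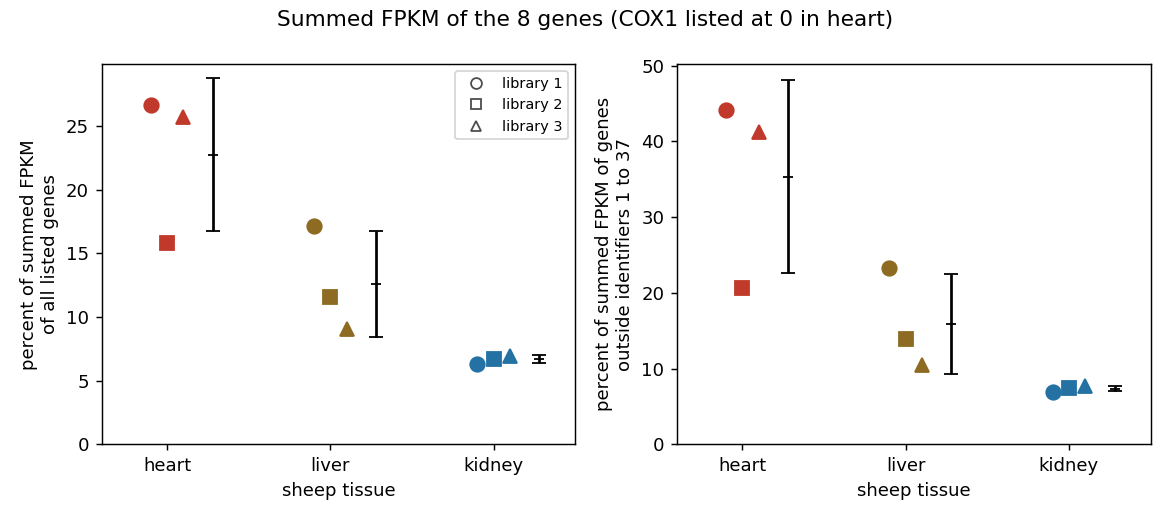
Summed FPKM of the 8 genes in each library, as a percent of all listed FPKM (left) and of the FPKM of genes outside identifiers 1 to 37 (right), with the mean and SD of 3 libraries beside the points. Kidney libraries sit together at 6.33% to 6.94% on the left, and heart library 2, at 15.8%, sits below liver library 1, at 17.1% with COX1 and 14.4% without it.

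The order of the levels differed between tissues. In all 3 heart libraries it ran ATP6, COX3, ATP8, COX2, CYTB, 16S rRNA and 12S rRNA, although neighbouring protein-coding genes overlapped across libraries and differed by 1.14 to 1.27 times in their means. In liver the mean order was ATP8, ATP6, COX1, COX3, CYTB, COX2, 16S rRNA and 12S rRNA, and neither ATP8 and ATP6 nor ATP6, COX1 and COX3 kept 1 order in all libraries. In kidney ATP8 was first in every library, at 1.50 times COX1 with no overlap. COX1, ATP6 and COX3 followed it in kidney in an order that varied with the library, and then COX2 and CYTB, which also overlapped. Every protein-coding gene above 0 exceeded 16S rRNA in every library, and 16S exceeded 12S rRNA in every library.

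Members filled much of the top of each list of genes. Of the 10 highest genes, 5, 4 and 5 were members in heart libraries 1, 2 and 3, against 6, 5 and 5 in liver and 2, 3 and 4 in kidney.

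Ratios of members within a library do not depend on a factor applied to the whole library, although quantile normalization, which is not such a factor, changes them. The log2 ratio of ATP8 to ATP6 was -0.22, -0.66 and -0.53 in heart, -0.18, 0.54 and 0.32 in liver, and 0.71, 0.91 and 0.49 in kidney. ATP6 was thus the higher of the pair in 3 of 3 heart libraries, and ATP8 in 3 of 3 kidney libraries, while liver held both orders. Heart was below kidney by a difference of -1.17 and below liver by -0.69 with no overlap (2-sided exact permutation p = 0.1 for each, adjusted over 16 ratio tests 0.267). Liver minus kidney was -0.48 with overlap (exact permutation p = 0.2, adjusted 0.457), and it was -0.27 without liver library 1. None of these passed the adjustment, which 3 libraries a tissue could not have reached. Because the reading frames of this pair overlap, the way shared reads were split may move their ratio. No transfer RNA place lies between the pair in the order of identifiers, so the ratio is not shown to be one of separate RNAs.

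The ratio of COX2 to COX3 was -0.61 ± 0.15 on the log2 scale in heart, -0.93 ± 0.15 in liver and -0.52 ± 0.20 in kidney (SD, n = 3). Liver lay lowest in every library, 0.32 below heart, and its difference from kidney was -0.41 (exact permutation p = 0.1 for each, adjusted 0.267). Heart and kidney overlapped (p = 0.7 in the same exact test). The ratio of CYTB to COX3 was -0.80 ± 0.07 in heart, -0.54 ± 0.16 in liver and -0.58 ± 0.14 in kidney. Heart lay below every liver and kidney library, by -0.26 and -0.22 (exact permutation p = 0.1 for each, adjusted 0.267), and liver and kidney overlapped (exact permutation p = 0.7). The heart to liver difference was -0.17 without liver library 2. For COX1 to COX3 the liver libraries gave -0.20, 0.13 and 0.27 and the kidney libraries 0.09, 0.37 and 0.27, overlapping ranges with a difference of -0.18 (exact permutation p = 0.4, adjusted 0.8) that was -0.0437 without liver library 1, -0.11 without kidney library 2 and -0.28 without liver library 3.

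Within the ribosomal RNAs, the log2 ratio of 12S to 16S ranged over libraries from -2.46 to -1.19 in heart, -2.98 to -1.31 in liver and -3.07 to -1.38 in kidney, so the tissues overlapped throughout. The ribosomal RNAs made up 1.44%, 5.32% and 1.52% of the members' FPKM in heart, 3.23%, 1.78% and 0.806% in liver and 1.16%, 4.51% and 1.67% in kidney. These sums include COX1, which counts as 0 in heart only. Heart library 2 and kidney library 2 were the highest of their tissues, and in liver the highest was library 1. The smallest exact permutation p of the 6 tests on these 2 ratios was 0.5, and the sign of 5 of the 6 differences turned when single libraries were left out. For ribosomal RNA to protein-coding genes, the log2 ratio differed by 0.45 for heart minus liver and 0.14 for heart minus kidney. With COX1 left out in every tissue, a choice made after seeing the data, these were 0.16 and -0.15.

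**Figure D4:**
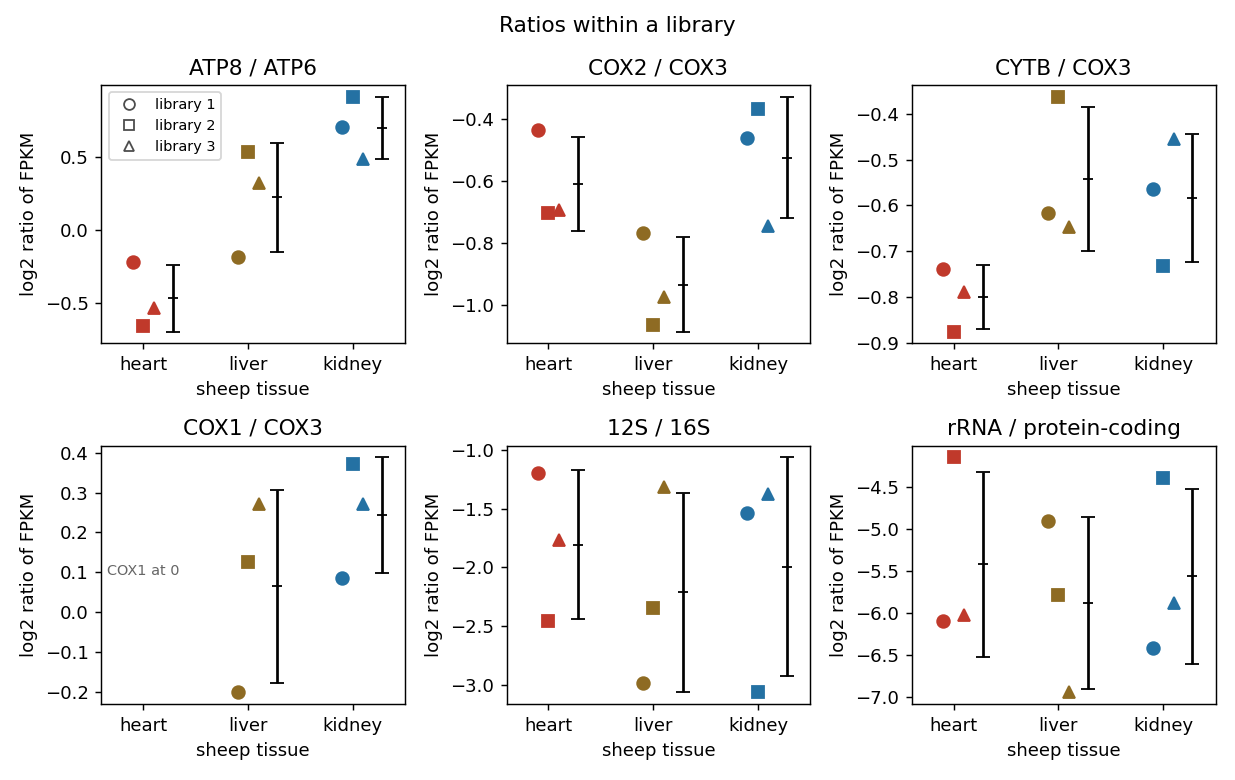
Log2 ratio of FPKM between members within each library, for 6 ratios, with the mean and SD of 3 libraries beside the points. For ATP8 to ATP6 all heart points lie below 0 and all kidney points above it, the COX2 to COX3 ratio is lowest in liver, and the ratios with ribosomal RNA spread over the same range in all tissues.

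The mitochondrial genes of complex I, which feeds electrons into the chain from NADH, gave the context within the same genome. Of its 7 genes, 6 were called higher in heart than in liver, 6 higher in heart than in kidney and 5 higher in liver than in kidney, with none called lower, against the 30.8%, 14.6% and 12.3% of all genes given above. The heart to liver count was 4 with no filter (24.4% of all genes), 3 under the median ratio (25.5%) and under the equal sum (17.9%), and 0 under quantile normalization (26.8%). Their summed share of FPKM was 13.1%, 7.76% and 11.8% in heart, 9.07%, 5.13% and 4.30% in liver, and 2.64%, 2.17% and 3.02% in kidney. ND4L was listed at 0 in all 3 libraries numbered 2. In libraries 1 and 3 it was at 369 and 371 FPKM in heart, 92.5 and 62.9 FPKM in liver and 23.6 and 34.7 FPKM in kidney. It was called in no comparison with the zeros kept as values and no block. Against kidney it was called higher in heart with zeros set missing and with a replicate block. The first setting dropped a 0 only where another library of the tissue was above 100 FPKM. For ND4L the 0 in heart was therefore dropped, while those in liver and kidney stayed as values. Without the 3 libraries numbered 2, ND4L was called in all 3 comparisons.

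Outside identifiers 1 to 37, 14173 genes were ranked by the likeness of their log2(FPKM + 1) over the 9 libraries to the mean of the 7 members with no value of 0. The most alike was ENSOARG00000005388 (Pearson's r = 0.98), at 26.5 ± 1.53 FPKM in heart, 11.5 ± 1.74 in liver and 8.31 ± 2.30 in kidney. The next was ENSOARG00000013893 (r = 0.98), at 2.25 ± 0.368, 0.685 ± 0.363 and 0.338 ± 0.0458 FPKM. The 9 points fall into 3 tissues and share their libraries' scaling, so r describes a shared order of tissues.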

How the data were processed

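The series held mRNA-seq of heart, liver and kidney from 3 species with 3 libraries per group, and the 9 sheep libraries were used here; the cattle and goat tables served only to count genes, and a goat protein table was not used. The authors mapped reads with TopHat, estimated FPKM with Cufflinks 2.2.1 and deposited log2(FPKM + 1) values per gene. The methods name the sheep genome Oar_v3.1, whereas the submitters' processing notes list UMD3.1 for all samples. Groups follow the tissue in the labels.

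FPKM were recovered from the log2 values. Genes above 0.5 FPKM in at least 3 of 9 libraries were fitted with limma 3.58.1 in R 4.3.3 (a mean per tissue, empirical Bayes with trend, 2-sided, Benjamini-Hochberg over all genes tested, threshold 0.05), on the values as deposited. A gene listed at 0 in a whole tissue got no fold there. Summed shares and log2 ratios were compared by 2-sided exact permutation tests (Python 3.11.15), adjusted over each family. The fit was tested on simulated data. All 8 members were named, the complex I genes were counted, and the 2 genes most like the members were given. The members and lists were chosen with earlier results of these data known.

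No read counts were used, so depth is unknown and no counting interval is given. A rough guide came from values below 0.3 FPKM, where the most frequent log2 ratio between libraries of a tissue ran from -0.25 to 0.40 over 9 pairs, but held only 3.87% to 22.2% of genes. The study describes 3 unrelated females with several tissues each, but no label ties a number to an animal. Deviations of same-numbered libraries from their tissue means correlated over 0.1 in all 3 pairs of heart with liver (lowest 0.22) and of heart with kidney (lowest 0.19), and in 2 of 3 of liver with kidney (lowest 0.043). A fit with the number as a replicate block is therefore given beside the calls of single genes it changes. Its counts of members called are given with the additional observations. The main fit stayed without a block, as planned. The permutation p-values in the text are from unpaired tests, also for the heart comparisons. Other alternatives were a pseudocount of 0.1, the study's filter (80% of samples), no filter, 3 other scalings, zeros set missing, a minimum log2 difference of 1 and leaving out each library. A 0 was set missing only where another library of the same tissue was above 100 FPKM.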

Additional observations from a re-analysis of the deposited data

How the results depend on the processing

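Over 417 alternatives for 22 differences of single members, 379 kept their direction and their side of the threshold, 27 lost the call, 8 gained it and 3 changed sign. The sign changes were under quantile normalization, where heart minus liver was -0.50 for ATP8 and -0.0106 for CYTB and heart minus kidney was -0.20 for ATP8; quantile normalization gives equal ranks equal values, and these genes rank near the top in all tissues. Members called higher between heart and liver fell from 6 to 1 of 7 under quantile normalization (26.8% of all genes), and those between liver and kidney from 5 to 2 of 8 under it (22.8% of all genes) and to 1 with no filter on low values (10.2%). Leaving out 1 library gave 6 to 7 members called between heart and liver, 6 to 7 between heart and kidney, and 2 to 6 between liver and kidney, the lowest without liver library 1.

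With the replicate block, paired by library number, 7, 7 and 4 members were called in the 3 comparisons: 16S rRNA was gained between heart and liver, ATP8 was not called between liver and kidney (adjusted p = 0.0594), and no other member's call changed. Every library's deviations correlated best with those of its own number (9 of 9 pairs). The smallest p of a paired exact permutation test of 3 differences is 0.25, which each of the 3 differences in summed share gave.

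Ratio differences near 0 changed sign. Leaving out 1 library, 12S to 16S ranged from -0.35 (without kidney 2) to 0.52 for heart minus kidney, also negative without heart 1, and from -0.75 to 0.17 (without liver 1) for liver minus kidney, also positive without kidney 1 or 3. Ribosomal RNA to protein-coding genes ranged from -0.18 (without heart 2) to 0.94 for heart minus liver, also negative without liver 3. It ranged from -0.49 (without heart 2) to 0.72 for heart minus kidney, also negative without kidney 1 or 3, and from -0.80 to 0.27 (without kidney 2) for liver minus kidney, also positive without liver 3. CYTB to COX3 ranged from -0.0491 (without liver 2) to 0.11 for liver minus kidney, also negative without kidney 2.

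Chosen after seeing the data, leaving out the 3 libraries numbered 2 gave 12S to 16S of -0.0189 (heart minus kidney), ribosomal RNA to protein-coding genes of -0.14 (heart minus liver) and 0.22 (liver minus kidney), COX2 to COX3 of 0.0385 (heart minus kidney) and CYTB to COX3 of -0.12 (liver minus kidney). Leaving COX1 out of the protein-coding sum gave ribosomal RNA to protein-coding genes of -0.15 for heart minus kidney and 0.16 for heart minus liver. The cause of these changes was not tested. With 3 libraries a tissue and no read counts, p-values measure only the spread between these libraries.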

Other observations

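All 37 mitochondrial identifiers together held 39.7%, 23.6% and 37.5% of the summed FPKM in heart libraries 1, 2 and 3. They held 26.2%, 16.7% and 13.3% in liver and 8.97%, 8.89% and 9.96% in kidney. Between 0 and 5 sheep genes per library were listed at 0 while both other libraries of the tissue were above 100 FPKM, ND4L in heart library 2 among them. Besides ND4L, 1 gene, ENSOARG00000000798, was at 0 in the 3 libraries numbered 2 and above 0.5 FPKM in the other 6. The corresponding counts were 1 gene for the libraries numbered 1 and 2 genes for those numbered 3.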
